A study of Octopus bimaculoides with 6 samples.

Results

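The transcriptome of a whole hatchling of the octopus Octopus bimaculoides was compared with that of the first left arm (L1) of adults. RNA-seq was available from 1 whole-body hatchling, taken out of its chorion at 30 days post fertilization (dpf), and from 5 adult arm libraries. The arm libraries were the distal, medial and proximal sections of one male, OB-5, cut at 1.5, 3.5 and 5.5 cm along the arm, counted from its tip, and the arm tips of a second male, OB-2 (male tip), and of a female, OB-9 (female tip), each cut at 1.5 cm. The adults were caught in the wild, and the labels name no treatment for any of the 6 libraries. The comparison used 38556 of the 40327 quantified targets, namely those whose identifier starts with Ocbimv, which are the annotated coding transcripts. The other 1771 targets were non-coding RNAs and were left out before the levels were computed.

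An octopus arm section holds skin, suckers, a large mass of muscle and the axial nerve cord, with nerve cells along its whole length. A whole hatchling holds small arms of its own and, beside them, the organs an arm lacks, among them the central brain, eyes, mantle, gills, hearts, gut and digestive gland. In cephalopods the digestive gland secretes digestive enzymes and takes up nutrients. A hatchling library is thus a mixture of all organs at a young age, whereas each arm library is a mixture of the tissues of 1 adult appendage. The age, the body part and the animal differ together in this comparison and cannot be told apart. In bulk RNA, fewer cells of a type and less RNA per cell cannot be told apart either.

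Levels are given as coding TPM, a measure of transcript number corrected for target length, with each library scaled to the same sum over the coding transcripts alone. The hatchling was the most deeply sequenced library, with 9081923 estimated counts, against 3161353 to 6524632 in the arm libraries, of which the distal one was the shallowest. Non-coding RNAs made up 63.4% of the deposited TPM in the hatchling and 39.8% to 63.5% in the arm libraries. A level of 3 estimated counts, used as the floor of each library, was equal to 0.397 TPM in the hatchling and to 0.537 to 1.33 TPM in the arm libraries for a target of 1000 effective bases. Such floors and all intervals below cover counting error only. Markers of the expected tissues were present: the 5 neuronal transcripts (synaptotagmin-1, complexin and piccolo) summed to 349 TPM in the hatchling and to 246 to 708 TPM in the arm libraries, and the 4 dystrophin transcripts of muscle to 14.4 TPM in the hatchling and to 14.7 to 20.0 TPM in the arm libraries. None of these 9 transcripts was at 0 in the hatchling.

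The hatchling lay closest to the inner arm sections of OB-5. Among transcripts above 1 TPM in either library of a pair, 23.5% differed by at least 2-fold between the hatchling and the proximal section and 23.7% between the hatchling and the medial section, against 41.2% with the distal one, 51.9% with the tip of OB-2 and 57.9% with that of OB-9. The arm libraries themselves were unequally alike, with 9.49% of transcripts at least 2-fold apart between the medial and proximal sections, 14.6% between the male and female tips and 24.3% to 40.7% between the other pairs. Towards the tips most of the differing transcripts were at the lower level in the hatchling (46.0% lower and 11.9% higher against the female tip). Against the medial section they were almost balanced (12.1% lower and 11.6% higher). Values were raised to the floors, 0.397 TPM in the hatchling, 1.33 TPM in the distal section and 0.799 and 0.849 TPM in the male and female tips. A transcript without reads in these 3 can thus count as lower in the hatchling. From 10 TPM upwards, 58.1% differed 2-fold from the female tip and 22.8% from the medial section. With TMM, another scaling of the libraries, these shares were 40.9% and 23.6%. The correlation of log2 levels across transcripts ran from 0.711 with the male tip to 0.815 with the proximal section, as a description over transcripts, which are not independent replicates.

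**Figure D1:**
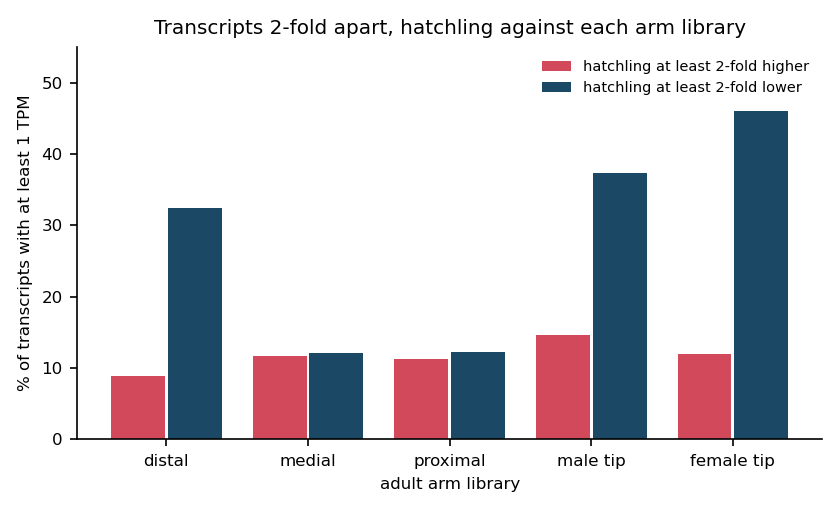
Share of coding transcripts with at least 1 TPM (%, vertical axis) at which the hatchling was at least 2-fold higher or at least 2-fold lower than each of the 5 arm libraries, 1 pair of bars per arm library. The lower share is 12.1% against the medial section and 46.0% against the female tip, while the higher share stays between 8.86% and 14.5%.

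Since the hatchling is 1 library, the spread among the 5 arm libraries served as the reference. A transcript was called above the arms when its hatchling level was at least 2-fold over that of the highest arm library, and below them when it was at least the same factor under the lowest, with values raised to the 3-count floor of their library. Of 31206 transcripts with at least 1 TPM in the hatchling or in the arm mean, 1139 (3.65%) were above every arm library by at least 2-fold and 1309 (4.19%) were below every one of them. Without the 2-fold demand, 4544 (14.6%) lay above all arms and 8200 (26.3%) below. The 2-fold counts have no test, since a single hatchling among 6 libraries cannot give a one-sided permutation p under 0.167 for any transcript. Their balance depends on the scaling: 46.5% of the 2-fold calls were above the arms with coding TPM, 71.9% with TMM scaling and 15.4% with the TPM as deposited. The median log2 ratio of hatchling to arm (mean of the 5 log2 levels) over all transcripts was -0.47 with coding TPM, -0.07 with TMM scaling and -0.69 with the deposited TPM, so that the medians of gene groups below are read against it. Leaving out the medial section raised the count below the arms to 2022.

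The gaps above the arms were wider than those below. The median fold to the nearest arm library was 3.77 among the 1139 transcripts above and 2.51 among the 1309 below, and 281 of those above were at least 10-fold away, against 44 of those below. Many of these folds rest on levels at the floor, since 396 of the transcripts above were at or under 3 counts in all 5 arm libraries and 420 of those below were at or under 3 counts in the hatchling. For 219 of the transcripts below, an arm value had been raised to its floor, and 1090 stayed with the arm values as measured. The threshold crossed a dense range, with 133 transcripts between 2-fold and 2.2-fold above and 200 between 1.8-fold and 2-fold above, and with 377 and 552 in the same bands below. With arm values raised to their floors, the median range of the 5 arm libraries was 1.31 on the log2 scale. At 71.1% of the tested transcripts the highest arm library was then at least 2-fold over the lowest. Both values include differences between the floors, which ran from 0.537 TPM (medial) to 1.33 TPM (distal) for 1000 effective bases. The AP-2-epsilon transcript (Ocbimv22034919m), at 0 counts in all 5 arm libraries, thus had a range of 1.20. How much of the spread comes from the floors was not tested. A gap of at least 2-fold that also reached the whole range of the 5 arm libraries was found for 814 transcripts above (2.61%) and for 724 below (2.32%).

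**Figure D2:**
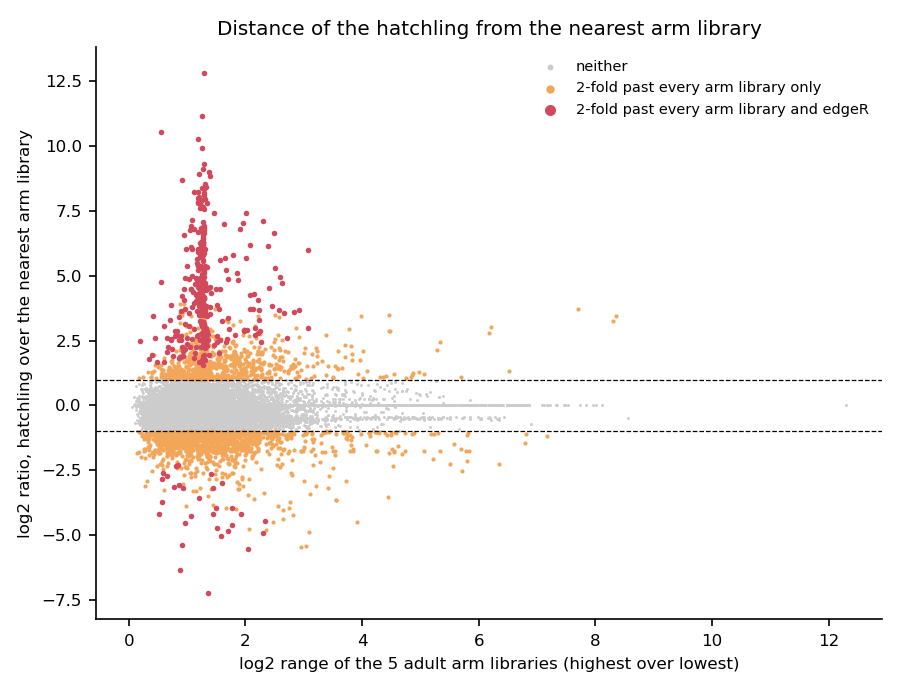
Each point is a coding transcript; the vertical axis is the gap between the hatchling and the nearest arm library (log2, positive where the hatchling is higher) and the horizontal axis the range among the 5 arm libraries (log2), both with values raised to the 3-count floor. Dashed lines mark 2-fold. The transcripts called by both the 2-fold rule and edgeR (red), 353 above and 30 below, lie outside them by the rule that called them. Those at or under the floor in every arm library line up at the range set by the floors alone.

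The edgeR quasi-likelihood test, in which the hatchling was assumed to vary like the 5 arm libraries, called far fewer transcripts. At a Benjamini-Hochberg adjusted p under 0.05, 354 of 24707 tested transcripts were higher in the hatchling (1.43%) and 30 were lower (0.121%). At an unadjusted p under 0.05 there were 2779. Both the 2-fold rule and edgeR called 353 transcripts above the arms (1.46% of the 24238 tested by both) and 30 below (0.124%). Leaving out the distal section, the shallowest library, left 211 edgeR calls above and 14 below. Of the 5 arm libraries 3 came from a single arm of OB-5, so these p-values measure only the spread among these libraries.

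Most of the transcripts called above by both rules were at the detection floor in the adult arm. Of the 353, 213 were at or under 3 counts in every arm library and 84 were at 0 in all of them, while 308 reached at least 10 TPM in the hatchling, 107 at least 100 TPM and 11 at least 1000 TPM. As a set, chosen by these same levels, they made up 7.38% of the coding TPM of the hatchling, against 0.0790% to 0.109% in the arm libraries. The 30 transcripts called below by both rules made up 0.00434% of the hatchling and 0.0814% to 0.0922% of the arm libraries. They were long, with a median length of 3405 bases, against 1249 bases for the 353 above and 1181 bases for all tested transcripts. Some neighbouring identifiers were called together, since 97 of the 353 had an adjacent identifier in the same set, and copies or fragments of 1 gene may be counted more than once there.

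A secreted metalloproteinase showed the widest gap among the transcripts with a name. Names here are those of the closest UniProt entry. Only a shortened copy of the study's annotation was at hand, so names were available for 491 of the tested transcripts. The study itself gave putative names to many more. Most of the 353 thus have no name here, though they may have one in the full annotation. The transcript closest to ADAMTS12 (Ocbimv22035044m), a protease that in vertebrates cuts proteins of the extracellular matrix, was at 93.3 TPM in the hatchling (958 counts), against 0 in all 3 sections of OB-5, 0.204 TPM in the male tip (1 count) and 0 in the female tip. It rose by 10.58 on the log2 scale (edgeR, adjusted p = 0.000400), and its ratio to the male tip was 458, with an exact 95% counting interval of 82.0 to 18102. The 2-fold rule that picked this transcript requires a gap to every arm library. The 5 of them held 1 count in all.

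A pair of actin transcripts from neighbouring identifiers rose as well. Actin forms the thin filaments of muscle and the cortex of every cell, and octopus, like other animals, carries several actin genes. Ocbimv22004268m (closest to actin-1) was at 184 TPM in the hatchling, against 1.24, 1.28 and 2.11 TPM from distal to proximal in OB-5, 0.768 TPM in the male tip and 3.61 TPM in the female tip, and rose by 6.64 on the log2 scale (edgeR, adjusted p = 0.00106). Ocbimv22004266m, also closest to an actin-1 but to an amoeba entry (ACT1_ACACA), was at 37.5 TPM in the hatchling. It was at 0 in every arm library except the male tip, where it was at 0.893 TPM (3 counts). It rose by 7.58 on the log2 scale (edgeR, adjusted p = 0.0148), a call that was lost when the distal section was left out and with DESeq2, with an adjusted p of up to 0.578. The ratio to the nearest arm library was 51.0 for the first (26.7 to 112, exact 95% counting interval) and 42.0 for the second (14.2 to 205). As estimated counts are divided among similar targets, the 3 adjacent actin transcripts were also summed, which gave 223 TPM in the hatchling, against 1.24 to 3.61 TPM in the arm libraries.

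Enzymes that break down polymers formed the next group. Beta-hexosaminidase removes terminal amino sugars and takes part in the breakdown of chitin fragments and glycans. The transcript with this name (Ocbimv22003948m), whose closest entry, HEX_VIBVL, is bacterial, was at 44.7 TPM in the hatchling. It was at 0.896, 0.844 and 1.10 TPM from distal to proximal in OB-5 and at 2.24 TPM in both tips. It rose by 4.94 on the log2 scale (edgeR, adjusted p = 0.00387), and its ratio to the female tip was 19.8 (14.0 to 28.8, exact 95% counting interval). Deoxyribonuclease-1 (Ocbimv22004375m), a secreted digestive nuclease in mammals, was at 45.4 TPM in the hatchling, against 0 in the distal and medial sections and the male tip, 0.727 TPM in the proximal section (3 counts) and 0.681 TPM in the female tip (2 counts). It rose by 7.08 on the log2 scale (edgeR, adjusted p = 0.0115), with a ratio to the proximal section of 62.5 (21.2 to 305). As both enzymes were picked by the 2-fold rule, a gap to every arm library was set by the choice.

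The sixth named transcript was closest to hypoxia-inducible factor 1-alpha (Ocbimv22034925m), the oxygen-sensitive subunit of the transcription factor that responds to low oxygen. It was at 5.28 TPM in the hatchling, against 0.348, 0.144 and 0.298 TPM from distal to proximal in OB-5, 0 in the male tip and 0.217 TPM in the female tip, which are 0 to 2 counts per arm library. It rose by 4.63 on the log2 scale with an adjusted p of 0.0381 (edgeR), close to the threshold, and the call was lost when any one of the arm libraries was left out, with an adjusted p of 0.0234 to 0.0866 over its alternatives.

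**Figure D3:**
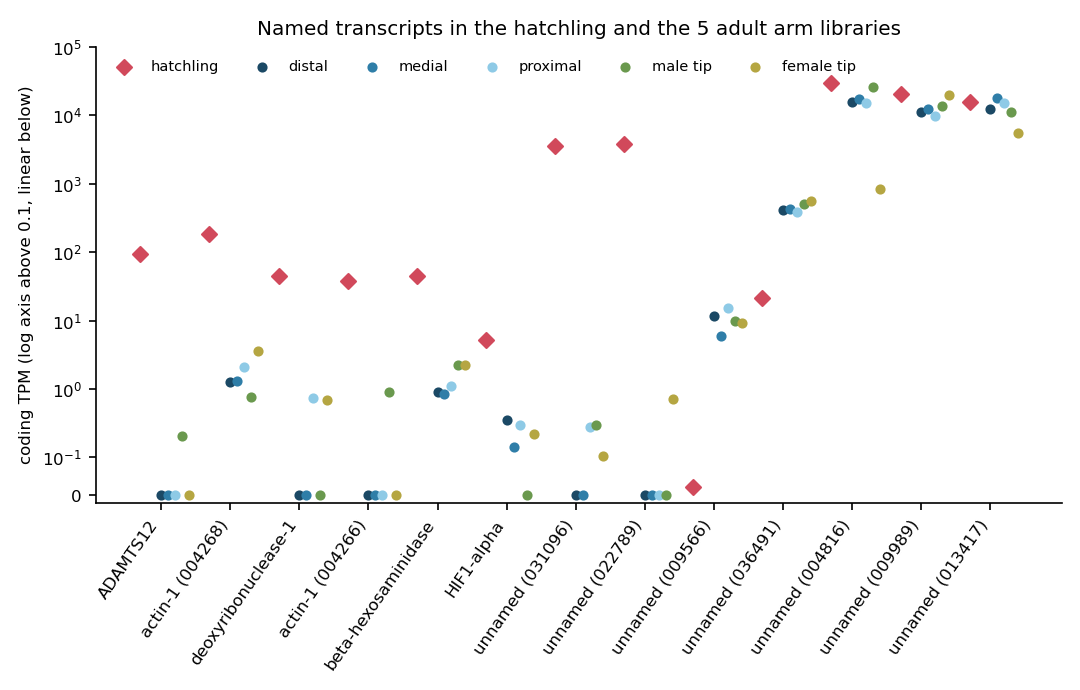
Level of each named or singled-out transcript (coding TPM, vertical axis, logarithmic above 0.1 and linear below it) in the hatchling (diamonds) and in the 5 arm libraries (circles, 1 colour each), with the last digits of the identifier in brackets. In the transcripts that rose, the hatchling stands apart from all arm points, as the rule that picked them requires. The 3 most abundant hatchling transcripts overlap the arm libraries or lie next to them.

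The largest gaps of all belonged to transcripts without a name in the shortened annotation. Ocbimv22022789m was at 3801 TPM in the hatchling, against 0.715 TPM in the female tip (2 counts) and 0 in the 4 other arm libraries, and rose by 14.52 on the log2 scale (edgeR, adjusted p = 0.000297). Ocbimv22031096m was at 3610 TPM in the hatchling, against 0 in the distal and medial sections, 0.276 TPM in the proximal section, 0.299 TPM in the male tip and 0.105 TPM in the female tip, and rose by 14.50 on the log2 scale (edgeR, adjusted p = 0.000297). They ranked 23 and 25 among the coding transcripts of the hatchling by level. Of the 100 most abundant hatchling transcripts, a set picked by its hatchling level and therefore tilted towards transcripts above the arms, 26 were at least 2-fold above every arm library and 14 were called by both rules.

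The most abundant coding transcripts of the hatchling were also abundant in the arm. Ocbimv22004816m, a short target of 186 bases, was at 30015 TPM in the hatchling, against 15875, 17383 and 15210 TPM from distal to proximal in OB-5, 25985 TPM in the male tip and 845 TPM in the female tip (edgeR, adjusted p = 0.706). Ocbimv22009989m was at 20430.5 TPM in the hatchling, against 9958 to 19820 TPM in the arm libraries (edgeR, adjusted p = 0.596), and Ocbimv22013417m was at 15860 TPM in the hatchling, inside the arm range of 5577 to 18047 TPM (edgeR, adjusted p = 0.815). The first differed more among the arm libraries, through the female tip, than between the hatchling and the male tip.

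Among the 30 transcripts that fell, none had a name in the shortened annotation. Of those with at least 200 counts in the arm mean, the 2 farthest from the arms are described. Ocbimv22036491m, whose fold to the nearest arm library was 18.3 beside a median of 16.7 over the 30, was at 21.2 TPM in the hatchling, against 414, 431 and 388 TPM from distal to proximal in OB-5, 502 TPM in the male tip and 553 TPM in the female tip. It fell by 4.43 on the log2 scale (edgeR, adjusted p = 0.00902). Its arm levels were tight, with a mean of 457 ± 68.0 TPM (SD, n = 5 libraries). Ocbimv22009566m, a target of 11152 bases, was at 0.0206 TPM in the hatchling, under its floor, against 11.5, 6.03 and 15.4 TPM from distal to proximal in OB-5, 9.92 TPM in the male tip and 9.35 TPM in the female tip (edgeR, adjusted p = 0.00570). Of the 30, 20 were at or under 3 counts in the hatchling and 6 were at 0, and only 2 exceeded a mean of 100 TPM in the arm.

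Gene groups are given by the number of their members called, beside the same over all transcripts, and by their median log2 ratio of hatchling to arm mean. The groups of single functions were drawn only from the names in the shortened annotation, so each is a part of its function. They were composed with earlier results of these data known, so their shares and medians are descriptions and not independent evidence. In the 20 groups of single functions and epigenetic factors, which hold 354 transcripts, 12 of 316 tested members were at least 2-fold above every arm library (3.80%, against 3.65% of all transcripts) and 18 below (5.70%, against 4.19%). By edgeR 4 rose and 0 fell, at an unadjusted p under 0.05 there were 15 higher and 21 lower, and DESeq2 called 5 higher and 7 lower. Members named from here on, other than those already described, were not called by edgeR and were chosen after their values were seen, so their levels are given with no claim of change.

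Digestive, lipid and detoxifying enzymes held the most members above the arms. Of 18 tested members, 5 were above every arm library by at least 2-fold (27.8%, against 3.65% of all transcripts), 0 were below and 2 rose by edgeR, and the group median was 0.77, against -0.47 over all transcripts. The median exceeded that of all transcripts by 0.85 to 1.43 under every scaling and with each arm library left out. As the group was composed with earlier results of these data known, its share above the arms is a description only. Beside beta-hexosaminidase and deoxyribonuclease-1, the 2-fold calls were chitotriosidase-1 (Ocbimv22007637m), a chitin-degrading enzyme, at 4.77 TPM in the hatchling and 0.457 to 1.53 TPM in the arm libraries, and solute carrier family 22 member 7 (Ocbimv22025743m), in mammals an organic anion transporter of liver and kidney. The carrier was at 5.39 TPM in the hatchling (106 counts) and at 0 in all 5 arm libraries, at least 10.8-fold higher than the floor of the distal section, with an adjusted p of 0.0617 (edgeR). The fifth, a serine dehydratase-like transcript (Ocbimv22002373m), was at 2.62 TPM in the hatchling and 0 to 0.856 TPM in the arm libraries, but summed with its neighbour it was at 20.9 TPM in the hatchling, inside the arm range of 13.2 to 52.6 TPM. The group was far from silent in the arm, since its summed level was 359 TPM in the hatchling and 179 to 260 TPM in the arm libraries, and arylacetamide deacetylase (Ocbimv22010621m), a lipid esterase of liver in mammals, was at 22.6 TPM in the hatchling and 5.46 to 12.0 TPM in the arm.

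Mitochondrial proteins were placed high as a group, with modest differences. Of 14 tested members, 10 lay above every arm library and 0 below every one, against 14.6% and 26.3% of all transcripts, 2 were above by at least 2-fold, and edgeR called none, against 3 higher at an unadjusted p under 0.05 and 1 by DESeq2. The group median was 0.97, which exceeded that of all transcripts by 1.15 to 1.68 under the scalings and with each library left out. The count of 10 is for coding TPM, which is 2.73 times the deposited TPM in the hatchling and 1.90 times in the proximal section. Narrow gaps over that section are not kept with the deposited TPM. An example is the COQ3 transcript (Ocbimv22005105m), at 7.73 TPM in the hatchling and 7.60 TPM in the proximal section. Glutamate dehydrogenase (Ocbimv22005793m), which links amino acid and energy metabolism, was at 125 TPM in the hatchling, against 56.8, 42.4 and 51.5 TPM from distal to proximal in OB-5, 31.0 TPM in the male tip and 38.4 TPM in the female tip. The mitochondrial chaperonin CH10 (Ocbimv22005007m) was at 86.4 TPM in the hatchling, against 30.9, 33.0 and 41.0 TPM from distal to proximal in OB-5, 11.5 TPM in the male tip and 10.6 TPM in the female tip. Its partner chaperonin CH60 (Ocbimv22005008m) was at 67.3 TPM in the hatchling and 19.8 to 38.4 TPM in the arm libraries. The 2-fold calls of the first 2 were not kept with the deposited TPM. In the sum of the group, 556 TPM in the hatchling stood above 337 to 344 TPM in the sections of OB-5 and 182 to 216 TPM in the tips of the other adults, so that the arm libraries also differed among themselves, with both tips of the other animals below all 3 sections of OB-5.

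**Figure D4:**
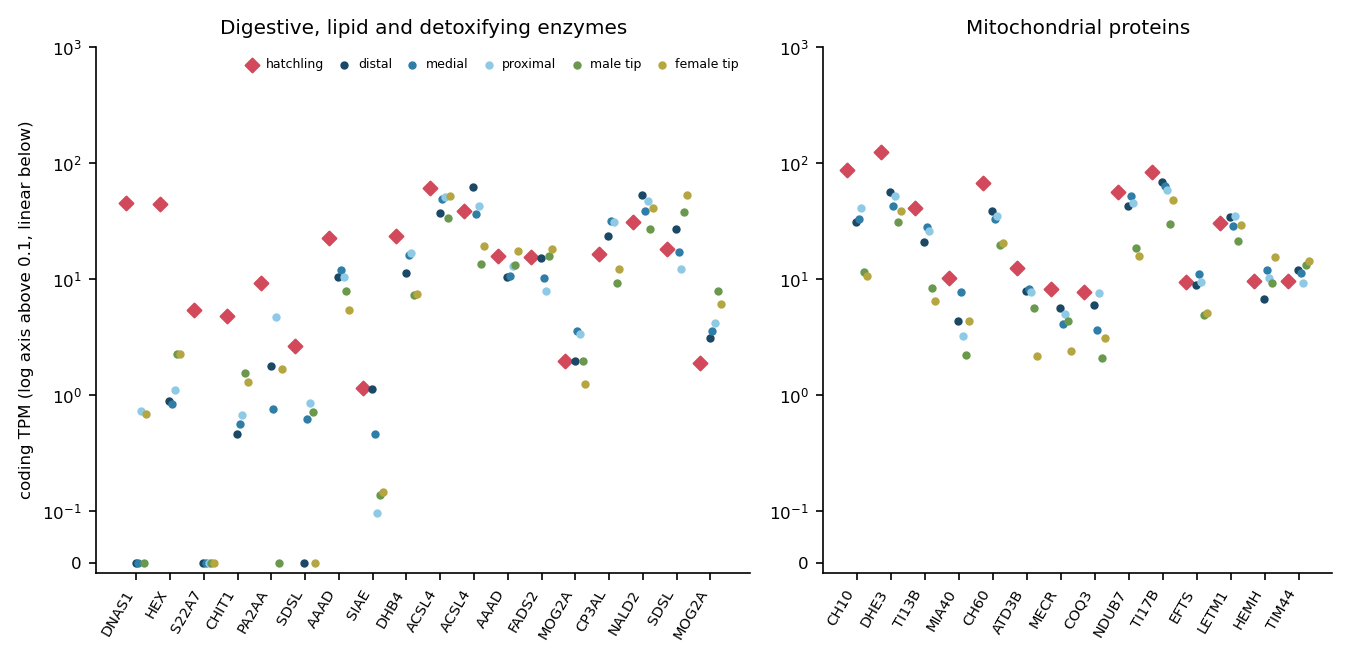
Levels (coding TPM, vertical axis, logarithmic above 0.1 and linear below it) of the digestive, lipid and detoxifying enzymes and of the mitochondrial proteins in the hatchling (diamonds) and the 5 arm libraries (circles), 1 transcript per position. The hatchling is the highest library for 10 of the 14 mitochondrial proteins, by less than 2-fold for all except glutamate dehydrogenase and CH10, whereas among the enzymes it is the highest for 10 of 18, by widely different factors, the lowest for 1 and inside the arm range for 7.

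Transcripts for protein synthesis were mostly above the arms with coding TPM, some by narrow gaps and none past 2-fold. Of 14 tested transcripts for ribosomal proteins, translation and ribosome assembly, 8 lay above every arm library and 1 below, against 14.6% and 26.3% of all transcripts. None was past 2-fold, none was called by edgeR or DESeq2, and 1 had an unadjusted p under 0.05 (edgeR). The group median was 0.56, against -0.47 over all transcripts, and exceeded it by 0.85 to 1.21 under the scalings and with each library left out. Counts of members outside the arms in this paragraph are for coding TPM. Coding TPM is 2.73 times the deposited TPM in the hatchling and 1.66 times in the medial section. Narrow gaps over that section, as 1.02-fold for protein CMSS1 and 1.10-fold for ribosomal protein S5, are therefore not kept with the deposited TPM. Their sum was 1670.3 TPM in the hatchling, next to 1399 to 1614 TPM in OB-5, and 633 and 813 TPM in the male and female tips. Ribosomal protein S5 (Ocbimv22031819m) was at 355 TPM in the hatchling and 283 to 322 TPM in the OB-5 sections, and nucleolar protein 58 (Ocbimv22004997m), needed for ribosome assembly, was at 29.9 TPM in the hatchling and 7.41 to 19.0 TPM in the arm libraries. All 4 tested serpins, inhibitors of serine proteases, were highest in the hatchling, against 14.6% of all transcripts. Still, the closest of them was at 8.0 TPM in the hatchling and 7.97 TPM in the medial section. Of 8 genes of DNA replication and mitosis, 4 were highest in the hatchling and 2 lowest, against 14.6% and 26.3% of all transcripts. Among the 4 was flap endonuclease 1 (Ocbimv22005800m), which processes lagging-strand DNA. This transcript was at 14.8 TPM in the hatchling and 6.66 to 9.87 TPM in the arm. The sum of these 8 was 86.9 TPM in the hatchling, inside the arm range of 82.0 to 98.2 TPM.

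For 18 of the 30 tested synapse and ion channel transcripts the hatchling lay inside the arm range. It lay under every arm library for 11 and above every one for 1. Over all transcripts 18462 of 31206 were inside, with 26.3% below and 14.6% above, so the share inside was similar. Of 30 tested members of the synapse and ion channel group, 0 were above every arm library by at least 2-fold, 3 were below (10.0%, against 4.19% of all transcripts) and edgeR called none, against 5 lower at an unadjusted p under 0.05 and 1 by DESeq2, with a median of -0.60. Complexin (Ocbimv22018680m), which regulates the fusion of synaptic vesicles, was at 183 TPM in the hatchling, against 328, 126 and 120 TPM from distal to proximal in OB-5, 187 TPM in the male tip and 173 TPM in the female tip. The hatchling was inside the arm range for complexin and for one synaptotagmin-1 transcript (Ocbimv22021175m), the calcium sensor of vesicle release, at 134 TPM in the hatchling and 58.1 to 272 TPM in the arm. The 3 members below were a transcript of glycine transporter 2 (Ocbimv22000954m), at 4.74 TPM in the hatchling and 11.4 to 19.0 TPM in the arm, one of glycine transporter 1 (Ocbimv22000955m), at 22.6 TPM in the hatchling and 46.5 to 80.0 TPM in the arm, and the sup-9-like potassium channel (Ocbimv22003850m), at 3.00 TPM in the hatchling and 6.59 to 11.7 TPM in the arm. These carriers take up glycine, an inhibitory transmitter in vertebrates. Summed over both transcripts each, the hatchling was at 0.475 of the lowest arm library for transporter 2 and at 0.514 for transporter 1, and with TMM scaling none of the 3 reached 2-fold.

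Developmental regulators were divided. Of 12 tested developmental transcription factors, 1 was above by at least 2-fold and 2 below, against 3.65% and 4.19% of all transcripts. The median was -0.81, against -0.47 over all transcripts. None was called by edgeR or DESeq2, and 2 were higher and 2 lower at an unadjusted p under 0.05 (edgeR). A pair of neighbouring transcripts closest to AP-2 factors, which in vertebrates act in ectoderm and neural crest, were at 8.23 TPM (AP-2-epsilon, Ocbimv22034919m) and 6.65 TPM (AP-2-alpha, Ocbimv22034917m) in the hatchling and at 0 in all 5 arm libraries. The first was at least 2.45-fold higher than the floor of the distal section. The Krueppel-like factor luna transcript (Ocbimv22007604m) was at 10.2 TPM in the hatchling, against 49.4, 61.7 and 56.3 TPM from distal to proximal in OB-5, 42.5 TPM in the male tip and 31.0 TPM in the female tip, and the homeobox transcript closest to XHOX-7.1' (Ocbimv22016198m) was at 2.32 TPM in the hatchling and 4.85 to 13.7 TPM in the arm. The Wnt receptor frizzled-10 (Ocbimv22037630m) was at 11.2 TPM in the hatchling and 23.9 to 44.3 TPM in the arm. These 3 lower transcripts did not reach 2-fold with TMM scaling.

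**Figure D5:**
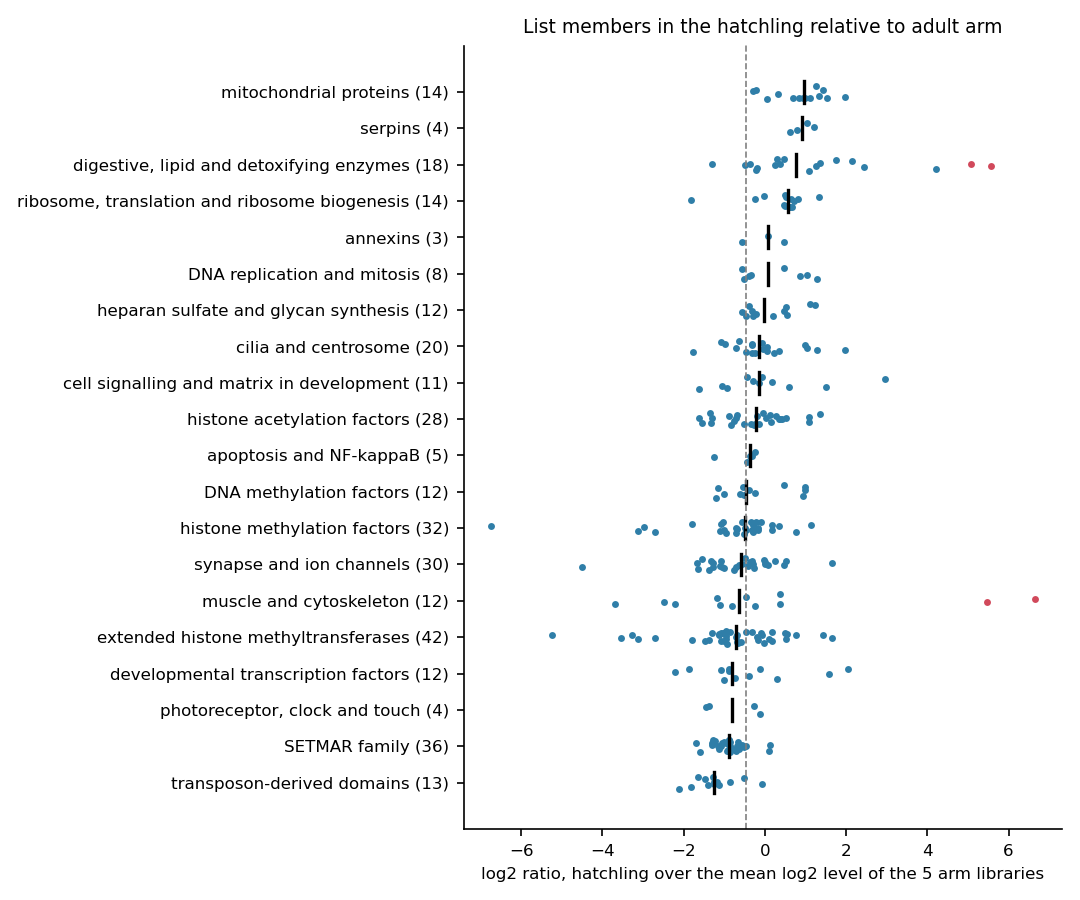
Log2 ratio of hatchling to arm mean (horizontal axis) for each tested member of each gene group (points, red where called by both rules, number tested in brackets), with the group median as a black bar and the median over all transcripts, -0.47, as a dashed line. Mitochondrial proteins (0.97), serpins (0.91), digestive enzymes (0.77) and the ribosomal group (0.56) lie to the right of that line and transposon-derived domains (-1.25) farthest to the left.

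Muscle and cytoskeleton transcripts were found on both sides of the arm range. Of 12 tested, 2 rose (the actins above) and 2 dystrophin transcripts were at least 2-fold below the arms. Over all transcripts the 2-fold shares were 3.65% above and 4.19% below, to be set beside each group that follows here. Dystrophin anchors the actin cytoskeleton of muscle fibres to the membrane. Its 4 transcripts summed to 14.4 TPM in the hatchling, just under the arm range of 14.7 to 20.0 TPM, so the low values of 2 transcripts did not hold for the sum. Cilia and centrosome transcripts had 1 of 20 above and 0 below by 2-fold, a median of -0.15, none called by edgeR or DESeq2 and 1 higher at an unadjusted p under 0.05. The one above, EF-hand calcium-binding domain-containing protein 7 (Ocbimv22012910m), a ciliary protein in vertebrates, was at 8.98 TPM in the hatchling, and with its neighbour it summed to 14.6 TPM in the hatchling and 3.24 to 5.90 TPM in the arm. The small groups of heparan sulfate and glycan synthesis (12 tested, median -0.01), annexins (3, 0.08), apoptosis and NF-kappaB (5, -0.36) and photoreceptor, clock and touch (4, -0.82) had no member 2-fold outside the arms and no call by edgeR or DESeq2, and 1 transcript, of the last group, at an unadjusted p under 0.05. Of 11 tested transcripts of cell signalling and matrix in development, 1 was above by at least 2-fold and 1 below, with a median of -0.15.

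Transposon-derived transcripts and the SETMAR family, which joins a histone methyltransferase domain to a transposase in primates, lay at the low end. Of 36 tested SETMAR transcripts, 27 were lower in the hatchling than in every arm library and 0 were higher than every one, against 26.3% and 14.6% of all transcripts. Only 2 were lower by at least 2-fold (5.56%, against 4.19% of all transcripts), a count that was 1 with TMM scaling and 5 with the deposited TPM, and the median was -0.88. These 2, SETMAR.7 and SETMAR.31, were called lower by DESeq2 and at an unadjusted p under 0.05 but not by edgeR, which called none of the family. The family summed to 468 TPM in the hatchling, against 836, 665 and 641 TPM from distal to proximal in OB-5 and 1326 and 1409.8 TPM in the male and female tips. Of 13 tested transposon-derived domains 6 were lower than every arm library, against 26.3% of all transcripts, and 2 of them by at least 2-fold (0 with TMM scaling and 7 with the deposited TPM). None was called by edgeR or DESeq2 and 2 had an unadjusted p under 0.05, the median was -1.25, and the sum was 46.5 TPM in the hatchling and 76.3 to 196 TPM in the arm. In both sums the tips of OB-2 and OB-9 were the highest libraries and the hatchling the lowest. The group medians stayed under that of all transcripts by 0.29 to 0.49 for SETMAR and by 0.68 to 0.91 for the transposon-derived domains under every scaling and with each library left out.

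Few of the factors that write, read or remove DNA and histone marks were 2-fold outside the arms. Of 12 DNA methylation factors none was, in either direction, and none was called by edgeR, by DESeq2 or at an unadjusted p under 0.05, with a median of -0.46, although 3 were at least 2-fold below with the deposited TPM. DNMT1 (Ocbimv22034501m), the maintenance DNA methyltransferase, was at 8.79 TPM in the hatchling and 9.27 to 16.6 TPM in the arm, and UHRF1 (Ocbimv22021185m), which recruits it, was at 8.82 TPM in the hatchling and 5.25 to 7.34 TPM in the arm. Histone methylation factors had 3 of 32 below by at least 2-fold, the extended histone methyltransferases 5 of 42 and histone acetylation factors 0 of 28 (3 with the deposited TPM), beside 4.19% of all transcripts, with none above and none called by edgeR. At an unadjusted p under 0.05 there were 4, 5 and 0 lower, and DESeq2 called 2, 3 and 0 lower. KMT2E (Ocbimv22024075m), a relative of histone H3 methyltransferases, was at 0.372 TPM in the hatchling and 2.38 to 4.58 TPM in the arm, and summed with its neighbour at 0.986 TPM in the hatchling and 4.39 to 15.5 TPM in the arm. SMYD3, summed over its pair of transcripts, was at 8.71 TPM in the hatchling and 18.9 to 81.2 TPM in the arm. For SETD2, KDM8 and EHMT1, single transcripts were 2-fold below while the sums over neighbouring identifiers were not.

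The tissue clusters and methylation classes of the study were read as lists of identifiers. The clusters were chosen partly on these libraries and only their listed parts were used, so their direction is not independent evidence. In the part of cluster 4, transcripts of arm and hatchling, 1 of 1734 was above the arms by at least 2-fold (0.0577%) and 130 were below (7.50%), with a median of -0.99. Over all transcripts these shares were 3.65% above and 4.19% below. The neuronal cluster 2 had 22 of 1670 above and 55 below, and the neuronal cluster 5 had 15 of 1803 above and 45 below. In cluster 6, transcripts of testes, 62 of 1182 were above (5.25%), of which 4 rose by edgeR, and 35 were below. The balance turned with the scaling: with TMM, cluster 2 had 52 above and 22 below and cluster 5 had 35 and 21, whereas with the deposited TPM cluster 2 had 14 and 139, cluster 5 had 6 and 205 and cluster 6 had 28 and 139. The methylation patterns group transcripts by the DNA methylation along their length in the supraesophageal brain of an adult, with pattern 4 the unmethylated one, and only a block of the identifiers of each pattern was used here (581, 967, 740 and 1999 transcripts of patterns 1 to 4). In these blocks pattern 3 had 41 of 650 above (6.31%) and 11 below (1.69%), against 3.65% and 4.19% of all transcripts. By edgeR 13 of 604 tested rose and 0 fell in pattern 3, and 22 of 913 rose and 1 fell in pattern 4. In pattern 1, 2 of 476 rose and 0 fell, and in pattern 2, 7 of 836 rose and 2 fell. Over all transcripts 1.43% rose and 0.121% fell by edgeR. Pattern 1 had 9 of 533 above and 20 below, pattern 2 had 32 of 883 and 27, and pattern 4 had 77 of 1462 and 74. With TMM scaling pattern 1 had 16 above and 11 below, and with the deposited TPM all 4 patterns had more below than above, pattern 3 with 30 above and 49 below and pattern 4 with 49 and 307.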

How the data were processed

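Libraries were made by the study from 250 ng of RNA after depletion of ribosomal RNA and sequenced as paired reads of 150 bases. Reads were trimmed with Trimmomatic 0.36 and checked with FastQC 0.11.5, and those of the hatchling alone also passed through Fastp to remove poly-G runs, a step that cannot be told apart from the group. The authors quantified reads with kallisto (version not given in the sources used here) and deposited, per target, estimated counts, TPM over all targets, and length and effective length, other columns in bases. Over all targets, recomputed TPM stayed within 0.00121% of the authors' values.

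TPM was recomputed here, from the deposited counts divided by effective length, over the 38556 coding targets. Values under 3 estimated counts were raised to that floor for the 2-fold rule, on transcripts with at least 1 TPM in the hatchling or the arm mean. Estimated counts rounded to whole numbers were tested with edgeR 4.0.16 (R 4.3.3, glmQLFit, offsets from effective length and coding TPM scale, at least 10 counts, Benjamini-Hochberg, common dispersion 0.240, 4 residual degrees of freedom). A trial on simulated data drew all libraries independently with the same dispersion. It therefore cannot check whether the hatchling varies like the arm libraries. DESeq2 1.42.0, Python 3.11.15, pandas 2.3.3, numpy 2.4.6, scipy 1.17.1 and matplotlib 3.10.9 were also used. Kallisto divides reads among similar targets, so near-identical copies are uncertain. No target identifier matched the gene table at hand, so names come from the annotation tables of the study, and no coordinates are given. The main annotation table was a shortened copy, which gave 411 names.

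Transcripts named were, among those called by both rules with at least 50 counts, the 10 highest and 10 lowest with a name (6 and 0 were found) and up to 4 per list, the 2 highest and 2 lowest of all with at least 200 counts, and the 3 most abundant in the hatchling. Members and lists were chosen with earlier results of these data known. Alternatives were other scalings, filters, floors, folds, 1 library per animal, each arm library left out, and DESeq2. Values with arms as measured and sums over neighbouring identifiers were added after seeing the data. Other libraries of the study are not analysed here.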

Additional observations from a re-analysis of the deposited data

Results flagged for a closer look

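Of 46 transcripts checked, 5 had 1 arm library far from the other 4 (Dixon's test at the 95% level). Chance flags about 1 in 20 where values are continuous. Where 4 libraries are at 0, any count in the remaining one is flagged, so these 5 cannot be read against that rate. For 3 of them the library set apart held only 1 to 3 counts while the others were at 0, namely the ADAMTS12-like transcript (0.204 TPM in the male tip), the actin-1 transcript Ocbimv22004266m (0.893 TPM in the male tip) and Ocbimv22022789m (0.715 TPM in the female tip). In the distal section the EHMT1.6 transcript was at 5.43 TPM, against 0.212 to 1.07 TPM in the other arm libraries, and the synaptotagmin-1 transcript Ocbimv22021175m was at 272 TPM, against 58.1 to 85.1 TPM. The distal section also had the highest sum of the 5 neuronal markers, 708 TPM, against 246 to 396 TPM in the other arm libraries. The part of this in the comparison with the hatchling was not tested.

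The non-coding targets were left out of the comparison. With the TPM as deposited, 15 of 816 tested non-coding targets were at least 2-fold above every arm library in the hatchling (1.84%) and 105 were at least 2-fold below (12.9%). On the same values 3.03% of the coding transcripts were above and 16.7% below.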

How the results depend on the processing

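The count of 1139 transcripts above every arm library became 749 with a minimum of 10 TPM and 541 at 4-fold, and 1211 to 1354 with an arm library left out. The count of 1309 below became 654 with TMM scaling, 4437 with the deposited TPM, 645 with a minimum of 10 TPM, 2467 with 1 library per animal, 824 on log2(TPM + 1), 177 at 4-fold and 1379 to 2022 with a library left out (2022 without the medial section). The 354 edgeR calls above became 569 with DESeq2 and 211 to 315 with a library left out, and the 30 below became 283 with DESeq2, 50 with the deposited TPM, 57 with 1 library per animal and 14 to 34 with a library left out (211 and 14 without the distal section). Of the list members, 12 above became 12 to 16 with a library left out, and 18 below became 8 with TMM scaling, 42 with the deposited TPM and 19 to 24 with a library left out. The share of transcripts 2-fold apart from the female tip was 57.9%, and 40.9% with TMM scaling. The 2-fold counts fall by the rule itself over fewer transcripts or at a stricter fold. With an arm library left out, the hatchling has fewer libraries to pass, so those counts tend to rise by the rule as well. The cause of the other shifts was not tested. Of 10 named transcripts with an edgeR call, 8 kept it in all 12 alternative fits, while the actin-1 transcript Ocbimv22004266m and the HIF1A-like transcript lost it in 2 of 12 and 8 of 11. No paired analysis was possible because the hatchling is a separate animal from the adults that gave the arm libraries. The distal section, the shallowest library, has the highest floor and was the nearest arm library for 592 of the 1139 transcripts above.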
